A study of Mus musculus with 19 samples.

Results

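Imprinted genes are transcribed mainly from the copy inherited from the mother or from the copy inherited from the father. The set described here holds 40 mouse genes of this kind, taken by symbol from a list of known imprinted loci, and all 40 were found among the 23284 gene rows of both deposited tables. They fall into the Igf2-H19 and Kcnq1ot1 domains (7 genes), the Dlk1-Dio3 domain (6), the Snrpn domain (6), the Peg10 domain (4), the Peg3 domain (3), the Igf2r domain (2), the H13-Mcts2 locus (2), Gnas (1) and separate loci (9).

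The parental copies of many imprinted genes differ in DNA methylation at a control region, a mark set in the germ line and kept through later cell divisions. Several imprinted genes are growth regulators that are abundant in the embryo and placenta and fall after birth: Igf2, a secreted growth factor, and Mest, Dlk1, Peg3 and Plagl1 are expressed from the father's copy, whereas H19, Meg3, Cdkn1c, Igf2r and Phlda2 are expressed from the mother's. H19, Meg3, Rian, Mirg, Airn and Kcnq1ot1 are long non-coding RNAs. RNA-seq as used here gives the total of both copies of a gene, so no value below says which parental copy was read.

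The libraries came from 6 MEF samples (mouse embryonic fibroblasts, labelled C57BL/6 with genotype Nkx3-1tm2(LacZ)Mms /+ and taken at E13.5 from pooled male and female littermates), 6 prostates of wild-type C57BL/6 mice aged 6 weeks, and 7 renal grafts. Per the study's methods, graft cells were embryonic limb fibroblasts given retroviral human OCT4, SOX2, KLF4 and c-MYC, termed induced epithelial (iEpt) cells, combined with rat urogenital mesenchyme and grown for 6 weeks under the kidney capsule of male nude mice with testosterone pellets. The iEpt+NAF grafts additionally received lentiviral Nkx3.1, androgen receptor and Foxa1. The labels do not separate the kinds of graft, and the study's supplement names FS002, FS003, FS005, FS007 and FS008 as iEpt+NAF. Those 5, with the prostate and MEF samples, share a table and are the grafts in every test. FS022 and FS023, in a separately normalised table, would be the iEpt only grafts by elimination, and their values are given side by side without a test. A graft holds rat stroma and some host kidney, and whether rat reads were assigned to mouse genes was not tested. The labels do not say whether the MEF samples were separate cultures, so p-values measure the spread between these samples, which may be technical.

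Values are the log2 normalised expression values that the authors deposited, so a difference of 1 is a doubling, except near the bottom of the scale. They rest on 16767283 to 26152339 reads counted on genes per library in the first table, and on 6629661 and 9662058 in FS022 and FS023. The floor used here is the value that 3 reads give, 1.68 to 2.34 depending on the library of the first table, and it covers counting error only. The MEF libraries formed 3 close pairs (FS015 with FS020, FS016 with FS019, FS017 with FS018). Secretory markers of prostate (7 genes) summed to 20.47 to 21.46 in prostate and 11.57 to 13.74 in the iEpt+NAF grafts, and in MEFs to 10.37 to 12.01 in FS015 to FS018 and 7.41 and 7.54 in FS020 and FS019. General epithelial markers (7 genes) summed to 14.39 to 15.76 in those grafts, 15.29 to 15.64 in prostate and 6.21 to 8.75 in MEFs.

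Several of the loci also hold microRNAs, small RNAs that pair with target transcripts through their seed. The mature sequences lying inside members, on the strand of the member unless stated otherwise, are given here for H19, Igf2, Mest and the Dlk1-Dio3 RNAs, whose host transcripts differed widely between groups or among grafts (RefSeq, GRCm38.p6, seed bases 2 to 8 in capitals). The libraries were made from messenger RNA and do not measure the mature microRNAs.
H19, miR-675-5p: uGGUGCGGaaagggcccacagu
H19, miR-675-3p: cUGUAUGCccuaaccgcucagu
Igf2, miR-483-3p: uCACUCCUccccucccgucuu
Mest, miR-335-5p: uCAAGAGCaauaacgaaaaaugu
Meg3, miR-770-3p: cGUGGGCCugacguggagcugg
Rtl1 locus, opposite strand, miR-127-3p: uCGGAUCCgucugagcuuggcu
Rtl1 locus, opposite strand, miR-433-3p: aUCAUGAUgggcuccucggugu
Rian, miR-370-3p: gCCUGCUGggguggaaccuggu
Mirg, miR-410-3p: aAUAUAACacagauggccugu
The seeds shown all differ from each other. The Rtl1 locus held 25 mature microRNA entries on the strand opposite to Rtl1, Mirg held 19 and Rian 6, against 2 each in H19, Igf2, Mest and Usp29. Among all the different microRNAs inside members, a shared seed was found only for miR-453 with miR-496a-5p and for miR-3070-3p with miR-3070-2-3p.

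Promoter sequences (300 bases around a single listed start per gene) were found in RefSeq for 34 members. They were searched for TGCCGC and its reverse complement GCGGCA, the letters read by ZFP57, a zinc finger protein known to hold methylation at imprinted control regions. These letters occurred in 7 of 34 member promoters (20.6%) and in 11.6% of the 27025 promoters searched, and the median number of CG pairs was 14 in the member promoters against 7 in all. Zdbf2 was the member with the most matches (3), and the Zdbf2, Plagl1, Nnat and Meg3 promoters are shown because their transcripts moved widely between the groups or among the grafts (GRCm38.p6, plus strand for all 4 genes, matches in capitals).
Zdbf2, chr1:63200108-63200407: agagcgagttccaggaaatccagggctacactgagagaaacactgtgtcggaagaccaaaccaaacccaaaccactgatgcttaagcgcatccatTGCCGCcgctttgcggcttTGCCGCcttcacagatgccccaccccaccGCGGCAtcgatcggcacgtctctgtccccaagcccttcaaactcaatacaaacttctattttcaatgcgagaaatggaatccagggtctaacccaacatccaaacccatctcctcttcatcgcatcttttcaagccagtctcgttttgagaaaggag
Plagl1, chr10:13090582-13090881: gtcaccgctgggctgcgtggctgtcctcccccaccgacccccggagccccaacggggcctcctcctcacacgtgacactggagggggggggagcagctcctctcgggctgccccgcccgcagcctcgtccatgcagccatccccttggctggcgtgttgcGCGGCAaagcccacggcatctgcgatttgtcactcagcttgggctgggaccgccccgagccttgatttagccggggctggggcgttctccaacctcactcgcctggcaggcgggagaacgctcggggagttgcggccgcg
Nnat, chr2:157559828-157560127: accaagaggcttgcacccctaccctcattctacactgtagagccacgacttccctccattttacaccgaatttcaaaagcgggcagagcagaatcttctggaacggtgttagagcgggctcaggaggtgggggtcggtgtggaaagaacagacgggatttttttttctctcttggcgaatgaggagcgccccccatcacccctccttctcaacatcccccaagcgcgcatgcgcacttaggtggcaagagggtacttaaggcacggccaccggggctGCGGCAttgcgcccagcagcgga
Meg3, chr12:109540746-109541045: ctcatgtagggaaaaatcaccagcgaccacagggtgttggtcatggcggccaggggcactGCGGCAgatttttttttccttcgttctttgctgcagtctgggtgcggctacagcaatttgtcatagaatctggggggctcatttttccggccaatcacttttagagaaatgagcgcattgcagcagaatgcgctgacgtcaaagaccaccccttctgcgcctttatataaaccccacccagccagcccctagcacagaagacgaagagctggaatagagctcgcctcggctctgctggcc
The other 3 promoters with a match belonged to Grb10, Mcts2 and Zim1, with 1 match each. A match describes the letters in this window and does not show binding. Any further starts of the same gene were not searched, so the shares with a match hold only for the windows used.

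As a group, the listed imprinted genes were lower in prostate than in MEFs, with the grafts spread between and beyond them. A second list of 39 other imprinted genes, described below, did not share this shift (median 0.16 against 0.17 for all genes). From MEFs to prostate, 35 members were tested, of which 23 fell and 5 rose, where 20.5% of all 14560 genes tested fell and 27.8% rose (48.3% in all). The median log2 difference was -2.73 over the members tested and 0.17 over all genes tested. From MEFs to the 5 grafts, 12 of 39 members fell and 7 rose (12% and 29.9% of all 16121 genes, 41.9% in all), with a median of -1.34 against 0.26. Prostate was lower than the grafts for 19 of 38 members and higher for 4 (23% and 10.3% of all 16353 genes, 33.3% in all), with a median of -1.38 against -0.11. The comparisons share groups and are not independent of each other. A member was called when limma's Benjamini-Hochberg adjusted p over all genes was under 0.05 and the difference was at least 1 on the log2 scale. With each MEF pair averaged to 1 replicate, 13 of 39 members rather than 19 were called between grafts and MEFs (5 higher, 8 lower), and likewise 13 without FS015 to FS018. Under quantile normalization, which moved the median of all genes to 0.01, -0.14 and 0.12 in the same order, members split into 4 higher and 24 lower, 4 higher and 15 lower, and 6 higher and 15 lower, and all genes into 3284 and 3308, 3025 and 3641, and 3243 and 2671.

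**Figure D1:**
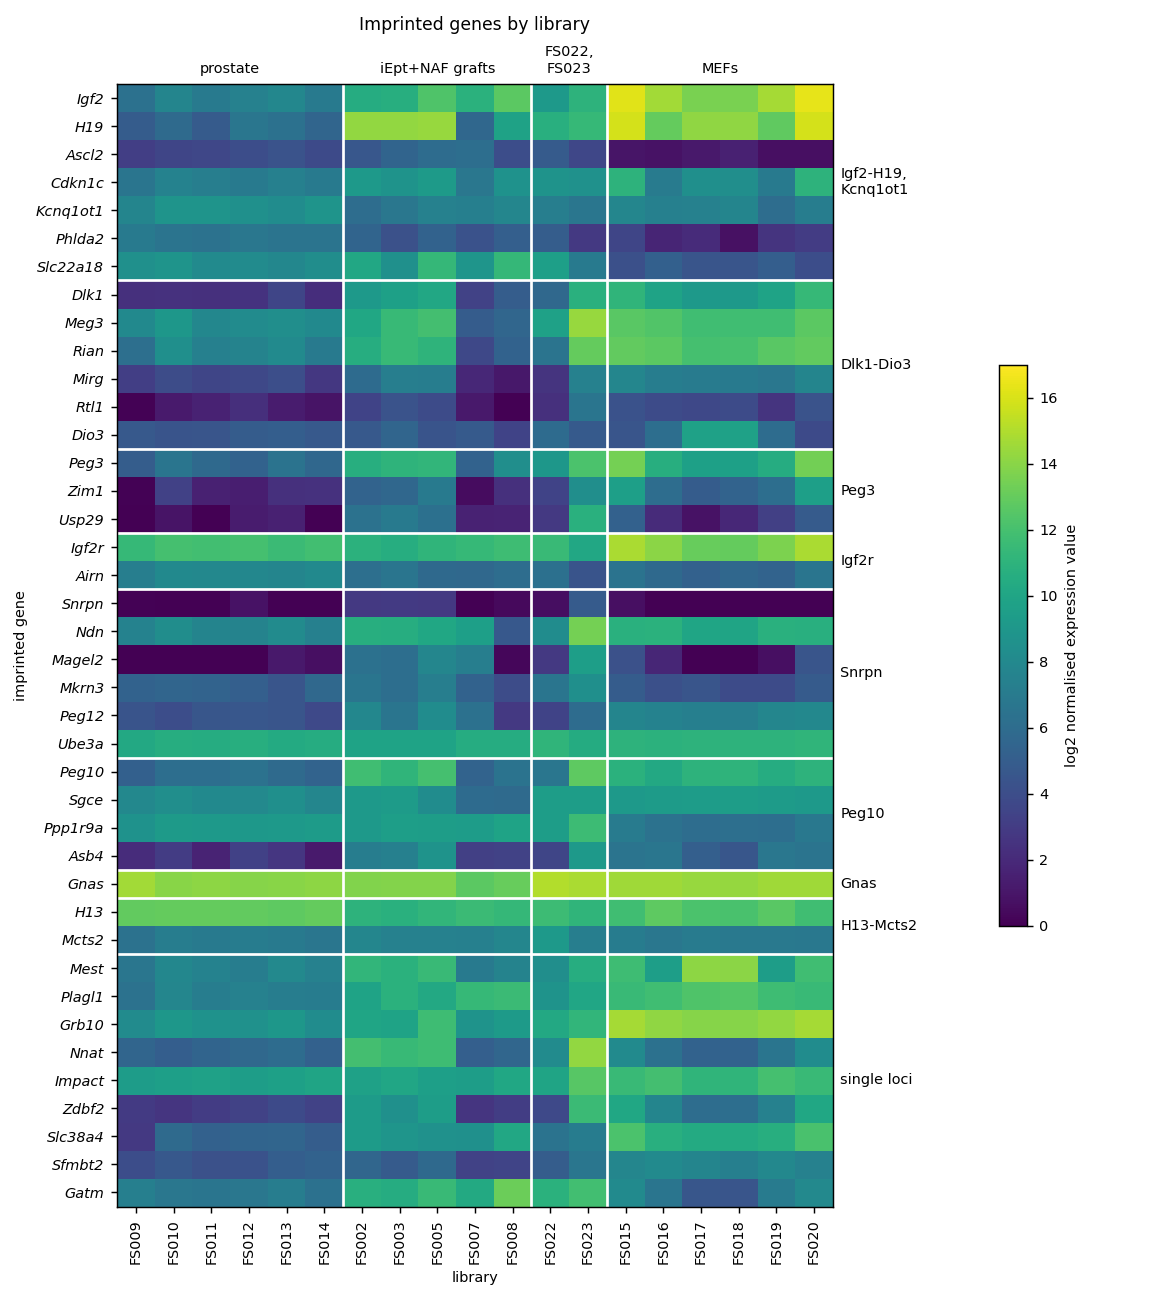
Heat map of the log2 normalised expression value (colour) of each of the 40 imprinted genes (rows, by domain) in each library (columns), with FS022 and FS023 moved onto the scale of the first table. Igf2 is higher in the 6 MEF libraries than in all others, and the Dlk1-Dio3 rows from Dlk1 to Rtl1 are darker in grafts FS007 and FS008 than in FS002, FS003 and FS005.

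Members too low to test were Ascl2, Rtl1, Usp29, Snrpn and Magel2 between prostate and MEFs, Snrpn between grafts and MEFs, and Rtl1 and Snrpn between prostate and grafts. The exact two-sided permutation test over samples, has a smallest possible p of 0.0022 in all 3 designs. The libraries of the groups did not overlap for 26 of 35 members tested between prostate and MEFs (66.7% of all genes tested), for 16 of 39 between grafts and MEFs (47.3%) and for 10 of 38 between prostate and grafts (37.2%). Below, exact p refers to the permutation test, and where none is printed for a called difference it was 0.0022. With the MEF pairs averaged, the smallest exact p was 0.0119 against prostate and 0.0179 against the grafts.

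The Igf2-H19 region of chromosome 7 held the widest differences between prostate and MEFs. Igf2 (chr7:149836673-149852721 in mm9) encodes insulin-like growth factor 2, and H19 (chr7:149761434-149764048) a non-coding RNA that shares its enhancers. Igf2 ranged from 13.55 to 16.35 (median 14.67) in MEFs and from 6.33 to 7.88 (median 7.25) in prostate, and its values in the iEpt+NAF grafts were 10.53, 10.63, 12.33, 10.89 and 12.72, given here and throughout in the order of their library numbers (FS002, FS003, FS005, FS007, FS008). No group overlapped another: MEFs were highest, prostate lowest and all 5 grafts between. Igf2 fell by 7.61 ± 0.50 (SE, adjusted p = 1.17e-08) on the log2 scale from MEFs to prostate, the grafts minus MEFs difference was -3.42 ± 0.63 (SE, adjusted p = 0.000602), and prostate minus grafts was -4.18 ± 0.44 (SE, adjusted p = 1.72e-05). Reads of its antisense transcript Igf2as, which overlaps 1.78% of the exonic bases, cannot be told apart, and Igf2as reached 7.95 at most.

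H19 ranged from 12.87 to 15.89 (median 14.18) in MEFs and from 4.85 to 6.66 (median 5.70) in prostate, a difference of -8.63 ± 0.55 (SE, adjusted p = 9.78e-09). In the grafts it was 14.27, 14.26, 14.41, 5.70 and 9.80. Grafts FS002, FS003 and FS005 lay inside the MEF range, FS007 lay inside the prostate range and FS008 between, so that the group mean of 11.69 ± 3.88 (SD, n = 5) lay near no graft's value. Prostate minus grafts was -5.99 ± 1.42 (SE, adjusted p = 0.00403) with exact p = 0.0087, and grafts minus MEFs was -2.64 ± 1.5 (SE, adjusted p = 0.14). The difference between these neighbours varied widely across grafts: Igf2 minus H19 was -3.74, -3.63, -2.08, 5.19 and 2.91, against 0.84 to 2.16 in prostate and -0.65 to 1.82 in MEFs.

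**Figure D2:**
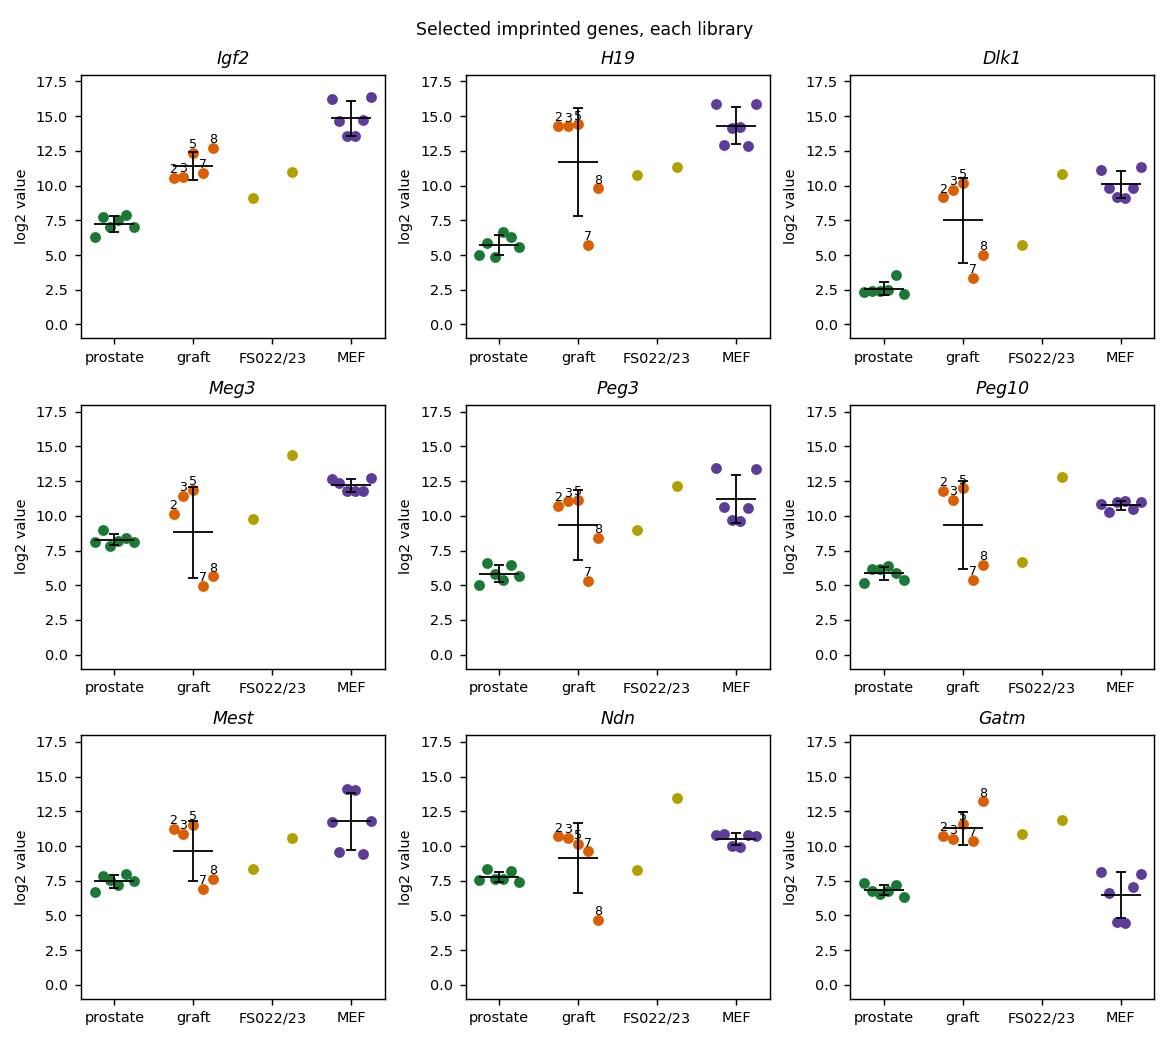
Log2 normalised expression value of 9 imprinted genes in each library (points), with the mean and SD as bars for prostate, the iEpt+NAF grafts and MEFs. Digits over the graft points are the last digit of the graft name (2, 3, 5, 7 and 8), and FS022 (left) and FS023 (right) are shown without a mean. In the H19, Dlk1, Meg3, Peg3, Peg10 and Mest panels graft 7 is the lowest of the iEpt+NAF grafts and graft 8 the next, whereas in the Ndn panel graft 8 alone is low.

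In the neighbouring Kcnq1ot1 domain, Ascl2, Phlda2 and Slc22a18 were lowest in MEFs, unlike Cdkn1c. Cdkn1c, the cyclin-dependent kinase inhibitor p57, ranged from 6.99 to 11 (median 8.42) in MEFs and from 6.60 to 7.51 (median 7.11) in prostate, and was 9.23, 8.75, 9.29, 6.73 and 8.65 in the grafts. MEFs spread over both other groups, with the pair FS015 and FS020 near 11 and the other 4 libraries at 8.46 or lower. For Cdkn1c, prostate minus MEF was -1.70 ± 0.67 (SE, adjusted p = 0.0321) with exact p = 0.0368, but the difference was -0.61 and not called without FS015 and FS020. The prostate minus graft difference was -1.42 ± 0.41 (SE, adjusted p = 0.0118) with exact p = 0.0195, and was not called with all 17 samples in the fit (adjusted p = 0.0862).

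Phlda2, a pleckstrin homology protein that restrains placental growth, ranged from 6.43 to 6.99 (median 6.55) in prostate and from 0.76 to 3.53 (median 2.34) in MEFs, and was 5.50, 4.23, 5.32, 4.29 and 5.17 in the grafts. The 3 groups did not overlap. Because 2 of 6 MEF libraries were at or under the floor, the sizes of the differences from MEFs are uncertain. Phlda2 rose by 4.34 ± 0.39 (SE, adjusted p = 2.91e-07) from MEFs to prostate and by 2.61 ± 0.54 (SE, adjusted p = 0.00141) from MEFs to grafts, the latter with exact p = 0.0043, and under quantile normalization the latter was 0.12 and not called. Prostate exceeded the grafts by 1.73 ± 0.28 (SE, adjusted p = 0.000364). Slc22a18, an organic cation transporter gene, was 10.18, 8.53, 11.35, 8.88 and 11.33 in the grafts, 7.85 to 8.78 (median 8.28) in prostate and 4.04 to 5.22 (median 4.50) in MEFs. Every graft and every prostate library exceeded all MEF libraries, by 5.47 ± 0.53 (SE, adjusted p = 6.19e-06) and 3.72 ± 0.23 (SE, adjusted p = 6.9e-09) on average, and prostate minus grafts was -1.74 ± 0.50 (SE, adjusted p = 0.011) with exact p = 0.0043. The grafts highest in Slc22a18, FS002, FS005 and FS008, were also those with the highest sums of 10 kidney markers (16.38, 17.42 and 17.35, against 10.67 in FS003, 12.84 in FS007, 4.94 to 7.05 in prostate and 8.38 to 8.83 in MEFs). Of these markers 9 of 10 were higher in grafts than in MEFs (29.9% of all genes). Umod, Slc12a1 and Nphs1 were among those at the floor in all prostate libraries, and Aqp2, Nphs1 and Slc22a6 were so in all MEF libraries. The part of kidney tissue in the Slc22a18 values was not tested. In bulk tissue, fewer cells of a type and less RNA per cell cannot be told apart.

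Ascl2, a transcription factor of trophoblast and intestinal stem cells, was at or under the floor in every MEF library, 3.13 to 4.38 (median 3.72) in prostate and 4.59, 5.45, 5.98, 6.13 and 4.01 in the grafts. Set against the highest floor among the MEF libraries (3 reads in that library), it was at least 8.89-fold higher in the grafts and at least 3.17-fold higher in prostate. The prostate minus graft difference was -1.49 ± 0.44 (SE, adjusted p = 0.013, exact p = 0.0043), but -0.07 and not called under quantile normalization. Of 7 trophoblast markers only 1 passed the filter on low values, Krt7, which epithelia also express, and the giant cell marker Prl3d1 was at the floor in all 5 grafts. Kcnq1ot1, the non-coding RNA of the domain, was 7.71 to 8.82 (median 8.67) in prostate against 6.06 to 7.78 in MEFs and 6.07 to 7.81 in grafts. It was higher in prostate than in MEFs by 1.20 ± 0.29 (SE, adjusted p = 0.00172) with exact p = 0.0065, but by 0.93 without FS016 and FS019 and by 0.86 under quantile normalization, not called in either. Prostate also exceeded the grafts, by 1.40 ± 0.31 (SE, adjusted p = 0.00298) with exact p = 0.0065. It lies inside Kcnq1 on the opposite strand, and the kit used does not mark strand.

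The Dlk1-Dio3 domain of chromosome 12 was high in MEFs and low in prostate, with the grafts at both levels. Dlk1, a membrane protein of the Notch ligand family known from fetal tissues and preadipocytes (chr12:110691033-110701546), ranged from 9.13 to 11.36 (median 9.84) in MEFs and from 2.23 to 3.54 (median 2.40) in prostate, near the floor. It was 9.15, 9.69, 10.22, 3.37 and 5.03 in the grafts: FS002, FS003 and FS005 lay in the MEF range, FS007 in the prostate range and FS008 between. The prostate minus MEF difference was -7.51 ± 0.40 (SE, adjusted p = 1.65e-09) and prostate minus grafts was -4.92 ± 1.14 (SE, adjusted p = 0.00357) with exact p = 0.0043, whereas grafts minus MEFs was -2.60 ± 1.18 (SE, adjusted p = 0.0716).

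Meg3, Rian and Mirg are non-coding RNAs from the mother's copy, and Rian and Mirg hold small nucleolar RNAs and the microRNAs shown above. Meg3 (chr12:110779211-110809936) was 11.76 to 12.70 (median 12.09) in MEFs and 7.86 to 9.0 (median 8.16) in prostate, with 10.12, 11.44, 11.89, 4.94 and 5.63 in the grafts. FS007 and FS008 were below every prostate library. Meg3 fell by 3.91 ± 0.22 (SE, adjusted p = 2.77e-09) from MEFs to prostate. Grafts minus MEFs was -3.38 ± 1.20 (SE, adjusted p = 0.0275) with exact p = 0.0087. This call was lost without FS007 (-2.41), without FS008 (-2.58), without any of the MEF pairs and with the pairs averaged (exact p = 0.1429). Under quantile normalization it was lost as well (-3.23, adjusted p = 0.0559).

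Rian was 12 to 12.92 (median 12.65) in MEFs, 6.23 to 8.49 (median 7.49) in prostate and 10.61, 11.44, 11.06, 3.69 and 5.35 in the grafts, so that FS007 and FS008 again lay below all prostate libraries. Prostate minus MEF was -5.05 ± 0.33 (SE, adjusted p = 1.2e-08) and grafts minus MEFs was -4.10 ± 1.32 (SE, adjusted p = 0.0174), the latter not called with MEF pairs averaged (adjusted p = 0.0995), without FS015 and FS020 (-3.91) or without FS016 and FS019 (-4.04). Mirg stood at 6.71 to 7.77 (median 7.11) in MEFs, 2.77 to 4.10 (median 3.63) in prostate and 5.97, 7.24, 7.20, 1.86 and 1.11 in the grafts, where FS007 and FS008 were at or under the floor. All prostate libraries lay below all MEF libraries, by a difference of -3.69 ± 0.27 (SE, adjusted p = 2.88e-08).

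Rtl1, a retrotransposon-derived gene of placental vessels, stayed between -1.85 and 4.37 in the first table, and its reads cannot be told from the antisense transcript that carries miR-127 and miR-433. Dio3, the deiodinase that inactivates thyroid hormone, at the far end of the domain, did not share the pattern. It was 3.45 to 5.52 in the grafts, 4.43 to 5.07 in prostate and 3.84 to 9.72 in MEFs, where the pair FS017 and FS018 stood at 9.72 and 9.70, and it was called in no comparison. For prostate minus MEF (-1.90) Dio3 was called under quantile normalization (-2.40), with array weights (-1.73) and without FS015 and FS020 (-3.13), but was -0.17 without FS015 to FS018. Dlk1 minus Meg3, a difference of levels not corrected for length, was -6.57 to -4.84 in prostate, -2.67 to -1.35 in MEFs and -1.75 to -0.60 in the 5 grafts.

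In the Peg3 domain, Peg3, a zinc finger gene (chr7:6656603-6683132), was 9.63 to 13.42 (median 10.59) in MEFs, 5.03 to 6.59 (median 5.77) in prostate and 10.69, 11.04, 11.17, 5.32 and 8.42 in the grafts. FS002, FS003 and FS005 lay inside the MEF range, FS007 inside the prostate range and FS008 between. Prostate differed from MEFs in Peg3 by -5.38 ± 0.67 (SE, adjusted p = 6.55e-06) and from the grafts by -3.50 ± 0.93 (SE, adjusted p = 0.00789), the latter with exact p = 0.0152. Zim1, a neighbouring zinc finger gene expressed from the mother's copy, was 4.98 to 9.60 (median 6.10) in MEFs, 0.08 to 3.27 (median 1.98) in prostate and 5.44, 5.70, 6.97, 0.56 and 2.33 in the grafts, and all MEF libraries exceeded all prostate libraries (adjusted p = 0.000118 with limma). Its prostate mean lay under the floor, so no size is given. Usp29, a ubiquitin protease gene, was at the floor in all prostate libraries, 0.86 to 5.26 (median 2.65) in MEFs and 6.38, 6.95, 6.25, 1.66 and 1.69 in the grafts. Against the highest prostate floor it was 4.75-fold higher in the mean of the grafts, which includes FS007 and FS008, themselves at the floor. The exact p of 0.0022 for prostate against grafts rests in part on values at the floor (1.66 in FS007, at most 1.55 in prostate).

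In the Peg10 domain of chromosome 6, Peg10 and Asb4 were low in prostate and in grafts FS007 and FS008. Peg10, a retrotransposon-derived gene needed in placenta (chr6:4697306-4710514), was 10.25 to 11.07 (median 10.90) in MEFs, 5.18 to 6.39 (median 6.03) in prostate and 11.78, 11.13, 11.97, 5.39 and 6.47 in the grafts. FS002, FS003 and FS005 were above every MEF library and FS007 and FS008 at or just above the prostate range. For Peg10, prostate minus MEF was -4.90 ± 0.22 (SE, adjusted p = 3.31e-10). The prostate minus graft difference, -3.48 ± 1.15 (SE, adjusted p = 0.0231) with exact p = 0.026, was not called without FS002 (-2.87), FS003 (-3.04) or FS005 (-2.83).

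Asb4, an ankyrin repeat gene of vessels and placenta, was 4.52 to 6.76 (median 6.55) in MEFs and 1.24 to 3.31 (median 2.42) in prostate. In the grafts it was 7.19, 7.42, 8.76, 3.24 and 3.34. For Asb4, prostate minus MEF was -3.68 ± 0.48 (SE, adjusted p = 1e-05). Its prostate minus graft difference was -3.63 ± 1.00 (SE, adjusted p = 0.00918) with exact p = 0.0043. Because 3 of 6 prostate libraries were at or under the floor, both sizes are uncertain. Ppp1r9a, which encodes the actin-binding protein neurabin, ran the opposite way: it was 6.08 to 7.08 (median 6.32) in MEFs, 8.69 to 9.36 (median 9.10) in prostate and 9.15, 9.55, 9.45, 9.41 and 9.88 in the grafts. All libraries of the latter groups exceeded all MEF libraries, and Ppp1r9a rose by 2.64 ± 0.18 (SE, adjusted p = 1.54e-08) to prostate and by 3.03 ± 0.21 (SE, adjusted p = 5.56e-07) to the grafts. Sgce, the epsilon-sarcoglycan gene that shares its start region with Peg10, was 9.10 to 9.49 in MEFs, 7.83 to 8.45 in prostate and 5.87 to 9.33 in grafts. It fell by 1.19 ± 0.12 (SE, adjusted p = 7.61e-07) from MEFs to prostate, and its grafts minus MEFs difference of -1.59 ± 0.61 (SE, adjusted p = 0.0389) with exact p = 0.013 was lost without FS007 (-1.15) or FS008 (-1.13), without any of the MEF pairs, with the pairs averaged (adjusted p = 0.159) and with array weights (-0.56).

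The Snrpn domain of chromosome 7 is the region deleted in Prader-Willi and Angelman syndromes in humans. Its genes Ndn, Magel2 and Peg12 were far lower in FS008 than in the other iEpt+NAF grafts. Ndn, the MAGE family gene necdin, was 9.96 to 10.83 (median 10.76) in MEFs and 7.41 to 8.34 (median 7.63) in prostate, and fell by 2.73 ± 0.21 (SE, adjusted p = 5.44e-08) between them. In the grafts it was 10.69, 10.59, 10.12, 9.61 and 4.68, so FS008 lay below every other library of the table. Magel2, its neighbour and relative, was at the floor in all prostate libraries and -0.98 to 4.47 (median 1.28) in MEFs. In the grafts it was 6.36, 6.16, 7.82, 7.26 and 0.31, with FS008 alone at the floor. Against the highest prostate floor it was 9.47-fold higher in the mean of the grafts, FS008 included (exact p = 0.0065 for prostate against grafts). It was called higher in grafts than in MEFs (adjusted p = 0.0331, exact p = 0.039), without a size because 4 of 6 MEF libraries and the MEF mean were under the floor. That call was lost without any of FS002, FS003, FS005 or FS007, and without FS016 and FS019 or FS017 and FS018. It was also lost with MEF pairs averaged (adjusted p = 0.106) and under quantile normalization (adjusted p = 0.182).

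Peg12, a Frat family gene of Wnt signalling, was 7.29 to 7.91 (median 7.64) in MEFs, 3.74 to 4.64 (median 4.46) in prostate and 7.84, 6.64, 8.26, 6.34 and 2.82 in the grafts, with FS008 lowest of all libraries. Prostate minus MEF was -3.29 ± 0.19 (SE, adjusted p = 3.37e-09). The difference from the grafts, -2.07 ± 0.80 (SE, adjusted p = 0.0458) with exact p = 0.0476, was lost without FS002 (-1.71), FS003 (-2.01), FS005 (-1.60) or FS007 (-2.08). Its call was also lost under quantile normalization (-1.35) and without the filter on low values (adjusted p = 0.0545). Mkrn3, a ring finger gene tied to the timing of puberty, was 3.88 to 4.92 in MEFs, 4.51 to 5.73 in prostate and 3.93 to 7.24 in grafts. Its grafts minus MEFs difference of 1.49 ± 0.54 (SE, adjusted p = 0.0296) with exact p = 0.0281 was lost without FS002 (1.30), FS003 (1.42) or FS005 (1.15), without FS016 and FS019 (1.32) or FS017 and FS018 (1.41), with MEF pairs averaged (adjusted p = 0.126), and turned to -0.72 under quantile normalization. Ube3a, a ubiquitin ligase whose imprinting is known from neurons, ranged only from 9.83 to 11.11 over the 17 libraries and did not reach a difference of 1 in any comparison. Snrpn, a small nuclear ribonucleoprotein gene, was at or under the floor in 14 of 17 libraries and reached 2.83, 2.86 and 2.81 in FS002, FS003 and FS005. Snurf, which shares transcripts with it, was at the floor in all 17; the level of this locus is not used further.

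Of the separate loci, 8 of 9 fell from MEFs to prostate (20.5% of all genes tested). Mest, a hydrolase of mesoderm (chr6:30673547-30698457), was 9.44 to 14.10 (median 11.76) in MEFs, 6.66 to 7.98 (median 7.51) in prostate and 11.20, 10.85, 11.52, 6.94 and 7.63 in the grafts. Its MEF libraries split by pair, with FS017 and FS018 at 14.10 and 14.07 and FS016 and FS019 at 9.54 and 9.44, and all exceeded every prostate library. For Mest, prostate minus MEF was -4.32 ± 0.77 (SE, adjusted p = 0.000167). Its prostate minus graft difference, -2.17 ± 0.80 (SE, adjusted p = 0.0375) with exact p = 0.0563, was lost without FS002 (-1.78), FS003 (-1.87) or FS005 (-1.70). The same call was lost under quantile normalization (adjusted p = 0.0567) and with all 17 samples in the fit (adjusted p = 0.0602). Copg2, on the opposite strand, overlaps 23% of the exonic bases of Mest, and reads there cannot be told apart.

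Plagl1, a zinc finger regulator of other imprinted genes (chr10:12810497-12851500), did not split the grafts in this way. It was 11.52 to 12.47 (median 11.75) in MEFs, 6.42 to 7.80 (median 7.20) in prostate and 9.84, 10.84, 10.26, 11.41 and 11.58 in the grafts, where FS007 and FS008 were the highest. All grafts exceeded all prostate libraries, with a prostate minus graft difference of -3.59 ± 0.33 (SE, adjusted p = 6.89e-06). Prostate minus MEF was -4.70 ± 0.23 (SE, adjusted p = 7.03e-10). Grafts minus MEFs was -1.11 ± 0.32 (SE, adjusted p = 0.00992) with exact p = 0.0065, but -0.87 without FS002, -0.98 without FS005 and -0.85 without FS017 and FS018, and then not called. It was also not called with MEF pairs averaged (adjusted p = 0.0581) or under quantile normalization (-0.83).

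Grb10, an adaptor that restrains insulin and IGF receptor signalling (chr11:11830511-11938686), was 13.93 to 14.74 (median 14.23) in MEFs, 8.18 to 8.99 (median 8.65) in prostate and 10.01, 9.85, 11.73, 8.72 and 9.29 in the grafts. No graft or prostate library reached the MEF range. Grb10 fell by 5.68 ± 0.18 (SE, adjusted p = 3.06e-11) from MEFs to prostate and by 4.38 ± 0.44 (SE, adjusted p = 7.68e-06) from MEFs to grafts. Prostate lay lower than the grafts, with a difference of -1.30 ± 0.43 (SE, adjusted p = 0.0237) with exact p = 0.0087, and was -0.85 and not called without FS005.

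Slc38a4, an amino acid transporter gene of placenta and liver, was 10.38 to 12.18 (median 10.72) in MEFs, 2.85 to 5.87 (median 5.37) in prostate and 9.33, 8.88, 8.58, 8.50 and 10.19 in the grafts. The groups did not overlap, and the grafts lay between them. Grafts minus MEFs was -1.99 ± 0.43 (SE, adjusted p = 0.00175) and prostate minus grafts was -4.10 ± 0.52 (SE, adjusted p = 6.25e-05). Prostate minus MEF was -6.08 ± 0.51 (SE, adjusted p = 1.19e-07). Sfmbt2, a Polycomb protein gene, was 7.32 to 8.16 (median 7.74) in MEFs, 4.04 to 5.33 (median 4.46) in prostate and 5.64, 4.87, 5.79, 3.37 and 3.49 in the grafts, with differences from MEFs of -3.13 ± 0.24 (SE, adjusted p = 5.57e-08) in prostate and -3.09 ± 0.46 (SE, adjusted p = 0.000137) in the grafts. Zdbf2, a zinc finger gene on chromosome 1, was 6.10 to 10.11 (median 7.59) in MEFs, 2.65 to 3.81 (median 3.17) in prostate and 9.30, 8.50, 9.47, 2.60 and 3.10 in the grafts, with FS007 and FS008 in or beside the prostate range. Prostate minus MEF was -4.76 ± 0.69 (SE, adjusted p = 2.49e-05). Against the grafts the prostate difference, -3.42 ± 1.26 (SE, adjusted p = 0.0374) with exact p = 0.0519, was lost without FS002 (-2.74), FS003 (-2.94) or FS005 (-2.70). That call was also lost under quantile normalization (-3.12, adjusted p = 0.0581).

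Nnat, the small membrane protein neuronatin of brain and fat, was 11.92, 11.43, 11.73, 5.14 and 5.58 in the grafts, 5.07 to 6.02 (median 5.51) in prostate and 5.33 to 8.30 (median 6.45) in MEFs. FS002, FS003 and FS005 exceeded all MEF libraries and FS007 and FS008 lay within the prostate range. The prostate minus graft difference, -3.64 ± 1.26 (SE, adjusted p = 0.0281) with exact p = 0.0433, was lost without FS002 (-2.95), FS003 (-3.07) or FS005 (-2.99). Prostate minus MEF was -1.14 ± 0.50 (SE, adjusted p = 0.0488) with exact p = 0.0606. It was not called without FS015 and FS020 (-0.37), without FS016 and FS019 (-1.25) or with MEF pairs averaged (adjusted p = 0.0644). Nor was it called with all 17 samples in the fit (adjusted p = 0.345) or with the libraries scaled by their medians (adjusted p = 0.0535). Impact, a translation regulator gene, was 11.13 to 11.99 in MEFs, 9.42 to 9.92 in prostate and 9.46 to 10.10 in the grafts, with differences from MEFs of -1.92 ± 0.15 (SE, adjusted p = 8.69e-08) and -1.75 ± 0.19 (SE, adjusted p = 1.39e-05).

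Gatm, the first enzyme of creatine synthesis and abundant in kidney was 10.72, 10.51, 11.55, 10.35 and 13.21 in the grafts, 6.31 to 7.31 (median 6.77) in prostate and 4.48 to 8.13 (median 6.84) in MEFs. All grafts exceeded all other libraries of the table, by 4.8 ± 0.78 (SE, adjusted p = 0.000279) over MEFs and by 4.45 ± 0.45 (SE, adjusted p = 1.44e-05) over prostate. The kidney marker sums beside these values were 16.38, 10.67, 17.42, 12.84 and 17.35. The part of kidney tissue in the Gatm values was not tested.

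The Igf2r domain of chromosome 17 pairs the receptor that clears IGF2 with Airn, the non-coding RNA that overlaps it. Igf2r (chr17:12875272-12962530) was 13.01 to 14.85 (median 13.87) in MEFs, 11.37 to 11.98 (median 11.83) in prostate and 10.94, 10.56, 11.13, 11.38 and 11.71 in the grafts. It fell by 2.15 ± 0.31 (SE, adjusted p = 2.95e-05) from MEFs to prostate and by 2.77 ± 0.37 (SE, adjusted p = 6.93e-05) to the grafts, with no overlap. Igf2 minus Igf2r, uncorrected for length, was -5.04 to -3.74 in prostate, -0.49 to 1.20 in the grafts and 0.53 to 1.51 in MEFs. Airn was 7.24 to 8.09 in prostate, 5.73 to 6.62 in the grafts and 5.27 to 6.61 in MEFs, higher in prostate by 1.96 ± 0.25 (SE, adjusted p = 7.26e-06) than in MEFs and by 1.73 ± 0.21 (SE, adjusted p = 4.92e-05) than in grafts. Airn starts inside an intron of Igf2r on the opposite strand, and the kit does not mark strand.

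Gnas, the stimulatory G protein subunit, was 12.70 to 14.61 over the 17 libraries. Grafts minus MEFs was -1.06 ± 0.21 (SE, adjusted p = 0.00115), which was -0.87 without FS007 and -0.96 without FS008 and then not called, as also with array weights (-0.77) and under quantile normalization (-0.20). H13, the signal peptide peptidase gene, was 12.75 to 13.01 in prostate, 11.78 to 12.78 in MEFs and 10.77 to 11.57 in grafts. Prostate exceeded grafts by 1.76 ± 0.13 (SE, adjusted p = 1.63e-06), and grafts minus MEFs was -1.06 ± 0.21 (SE, adjusted p = 0.00104). The latter call was lost without FS003 (-0.97), without FS016 and FS019 (-0.81) and under quantile normalization (-0.7). Mcts2, a retrogene inside H13 that could share reads with its parent copy, was 7.42 to 7.79 in grafts, 6.40 to 7.23 in prostate and 6.72 to 7.13 in MEFs. Grafts minus MEFs was 0.69 and prostate minus grafts was -0.70, both without overlap. Mcts2 was called in no comparison because these sizes stayed under 1, and under quantile normalization they were -0.41 and 0.03.

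**Figure D3:**
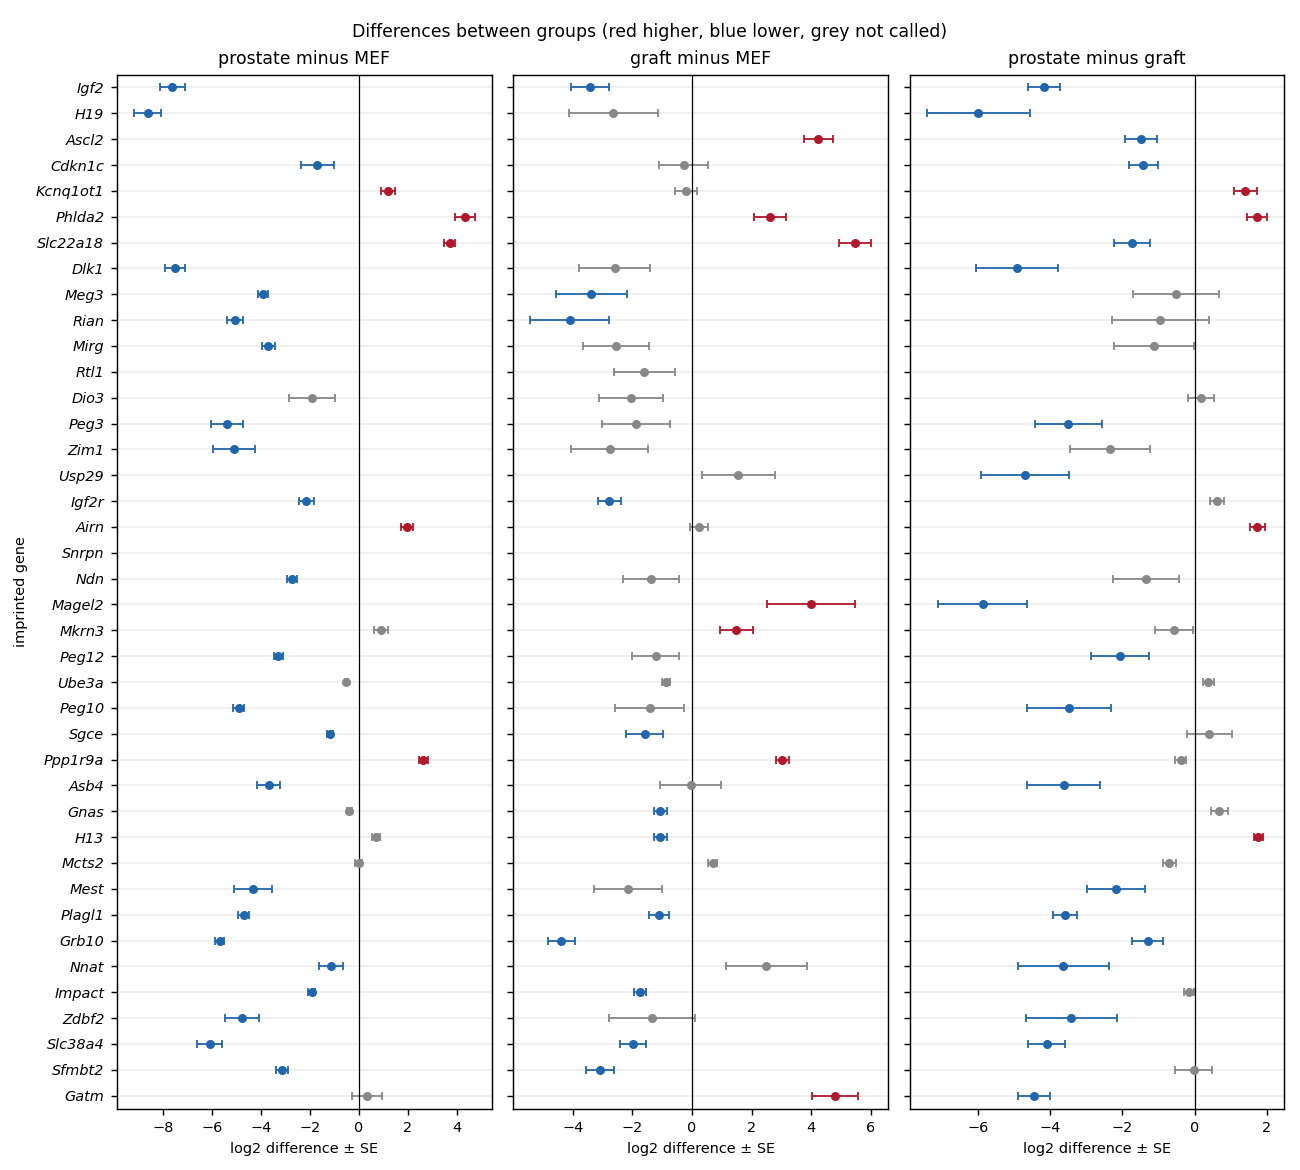
Log2 difference (points) with its SE (bars) from limma for each imprinted gene in the 3 comparisons, red for members called higher, blue for members called lower and grey for members not called. Points of Ascl2, Usp29, Zim1 and Magel2 rest on a group under the floor and do not measure a size. In the comparisons with prostate, points of Asb4 and Dlk1 rest on a group near the floor, as do points of Phlda2 in the comparisons with MEFs. In the left panel 23 points are blue and 5 red, and the SEs of the middle and right panels are wider for genes that differed widely among the grafts, such as H19 (1.5) and Rian (1.32) against MEFs.

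Where the grafts stood between prostate and MEFs was described for the 19 members with a MEF value at least 2 above prostate and called in that comparison, a choice that used no graft value. On a scale with the prostate mean at 0 and the MEF mean at 1, the median of these genes was 0.71 in FS002, 0.79 in FS003 and 0.94 in FS005, but -0.10 in FS007 and 0.09 in FS008. The 1587 genes chosen in the same way from all genes had medians of 0.57, 0.54, 0.57, 0.31 and 0.32. Single members departed from their graft: Plagl1 was at 0.90 and 0.93 in FS007 and FS008, Slc38a4 at 0.57 and 0.85, Igf2 at 0.48 and 0.72, and Ndn at 0.67 in FS007 but -1.14 in FS008. Igf2r was below the prostate mean in all 5 grafts (-0.56 to -0.02).

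**Figure D4:**
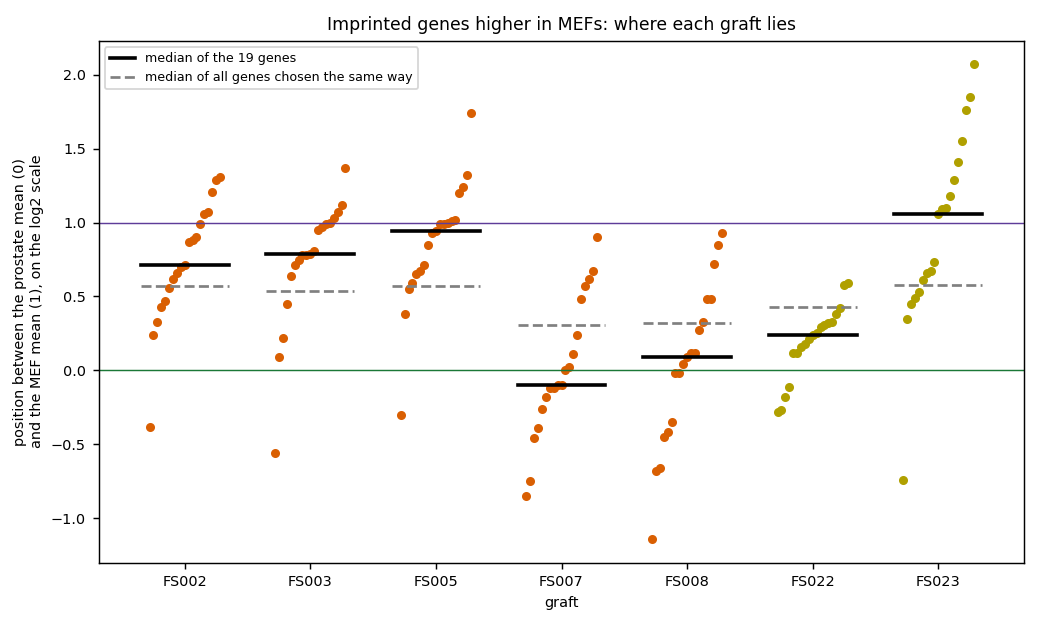
Position of each graft between the prostate mean (0) and the MEF mean (1) on the log2 scale for the 19 imprinted genes (points, sorted), with their median (black line) and the median of the 1587 genes of the whole table chosen in the same way (dashed line). FS002, FS003, FS005 and FS023 have medians of 0.71 to 1.06, FS007, FS008 and FS022 of -0.10 to 0.24.

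Over the 38 members with a linear mean of at least 10 in the grafts, FS007 was the lowest of the 5 for 21 members and FS008 for 8, against 26.7% and 26.9% of 16607 genes. FS005 was the highest for 16 members (17.9% of those genes) and the lowest for none (15.7%). Other measures also differed between these grafts. The sums of 8 neuron markers were 12.15, 12.09, 12.61, 8.82 and 9.40, those of 10 fibroblast and mesenchyme markers 15.82, 16.32, 14.28, 14.20 and 13.68, and those of 5 pluripotent cell markers 11.02, 6.22, 10.16, 3.51 and 7.51. In prostate these sums were 6.78 to 8.38, 14.11 to 15.64 and 2.24 to 3.74, and in MEFs 8.54 to 11.76, 18.80 to 19.31 and 1.18 to 3.20. From MEFs to grafts 5 of 8 neuron markers and 3 of 4 tested pluripotent markers rose (29.9% of all genes). In the same comparison 9 of 10 fibroblast markers fell (12% of all genes). All 5 pluripotent markers were at the floor in prostate. The part of these measures in the imprinted gene values was not tested.

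The grafts of the second table also differed from each other. Of 38 members with a linear mean of at least 10 in the grafts, FS023 was the highest of all 7 grafts for 18, where it was so for 29.9% of 16586 genes, and exceeded all 17 libraries of the first table for 13, where it did so for 23.6%. Its values included Meg3 (14.35), Nnat (14.26), Ndn (13.44), Rian (12.99), Peg10 (12.77), Zdbf2 (11.56) and Usp29 (10.78). Its neuron marker sum was 16.28, above the 6.78 to 12.61 of the first table and the 11.36 of FS022. FS022 had Dlk1 at 5.72, Meg3 at 9.75, Peg10 at 6.66 and Zdbf2 at 3.77, with Mirg, Rtl1, Usp29, Snrpn and Magel2 at its floor. Igf2 was 9.10 in FS022 and 10.99 in FS023, and H19 was 10.73 and 11.36. The medians of the 19 genes were 0.24 in FS022 and 1.06 in FS023 (0.43 and 0.58 for the 1587 genes). The scale of these values rests on a shift of 0.10 and 0.14 between tables, and with fewer reads the value of 3 reads was 3.22 and 2.84 on this scale.

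Imprinted genes also differed between the MEF pairs. Of 32 members with a MEF mean above 5, 15 had pair means more than 1 apart on the log2 scale, where 15.9% of 11803 genes did, and the median of this range was 0.90 against 0.38 for those genes. Dio3 had the largest range (5.54), followed by Magel2 (5.23), which is near the floor, Mest (4.60), Zim1 (4.42), Zdbf2 (4.0) and Cdkn1c (3.96). Within pairs, the 32 members differed by at most 1.37. The pair FS015 and FS020 was highest for Igf2, H19, Cdkn1c, Peg3, Zim1 and Zdbf2, and the pair FS017 and FS018 for Mest and Dio3 while being lowest for Igf2, Peg3 and Zdbf2. What separates the pairs is not given by the labels.

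By the parental copy known to be expressed, 14 of 19 tested genes of paternal expression fell and 2 rose from MEFs to prostate (median -3.13), and 8 of 14 of maternal expression fell and 3 rose (median -1.92), where 20.5% of all genes fell and 27.8% rose. From MEFs to grafts the counts were 6 lower and 2 higher of 22, and 4 lower and 5 higher of 15 (12% and 29.9% of all genes). Between prostate and grafts prostate was lower for 12 of 21 and 6 of 15, and higher for 2 in each (23% and 10.3% of all genes). The difference between the parental classes was not tested, and counts of genes do not measure allelic expression.

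Other genes of the pathway were taken from lists. Of 20 IGF axis genes, 16 were tested between prostate and MEFs, where 9 fell and 2 rose (20.5% and 27.8% of all genes), with a median of -1.64 against 0.17 for all genes. Among the largest were Hmga2 (-9.63 ± 0.26, SE), an architectural chromatin protein gene that promotes Igf2bp2 transcription, and Igf2bp1 (-8.55 ± 0.29) and Igf2bp2 (-5.93 ± 0.14), whose products bind Igf2 messenger RNA. Their graft means lay between those of MEFs and prostate. Igf2bp1 was 9.77, 7.52, 10.26, 9.27 and 5.57, against 10.40 ± 0.38 (SD, n = 6) in MEFs and 1.85 ± 0.63 in prostate, under the floor, so that the size of its prostate difference is not a bound. Of 18 tested, 7 fell and 1 rose from MEFs to grafts (12% and 29.9% of all genes), with a median of -0.47 against 0.26. The riser, Lin28a, a pluripotency and fetal RNA-binding protein gene, was 9.75, 6.50, 9.75, 2.30 and -0.59 in the grafts, with FS008 under its floor, and -1.17 ± 1.28 in MEFs, under the floor. Prostate was lower than grafts for 10 of 18 and higher for 3 (23% and 10.3% of all genes), with a median of -1.65 against -0.11.

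Of 19 regulators that set or keep imprints, 16 were tested and 5 fell from MEFs to prostate, with none rising (20.5% and 27.8% of all genes). Zfp57, which encodes the protein whose letters were searched in the promoters, had a difference of -3.40 ± 0.26 (SE), Uhrf1, which guides maintenance methylation, of -2.70 ± 0.16, and Dnmt1, the maintenance methyltransferase, of -1.93 ± 0.11. Between grafts and MEFs 2 of 17 were lower (12% of all genes) and 1 higher (29.9%), the de novo methyltransferase gene Dnmt3b, at 10.22, 7.13, 9.64, 6.92 and 7.85 in the grafts and 5.32 ± 0.53 (SD, n = 6) in MEFs (difference 3.03 ± 0.60, SE, adjusted p = 0.000999). Prostate was lower than grafts for 3 of 17 (23% of all genes). The median over this list was -0.13, -0.14 and -0.14 in the 3 comparisons, against 0.17, 0.26 and -0.11 for all genes.

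In a second list of 39 other imprinted genes, 37 were found in the files. From MEFs to prostate 9 of 29 tested rose and 7 fell (27.8% and 20.5% of all genes), with a median of 0.16 against 0.17, so the shares were near those of all genes. The largest differences were those of Htr2a, a serotonin receptor gene (-6.58 ± 0.29, SE), Rasgrf1, a Ras exchange factor gene (6.01 ± 0.63), and the transporter gene Slc22a3 (4.77 ± 0.69). MEF means of Rasgrf1, Slc22a3, Slc22a2 and Kcnq1 were under the floor, so that the sizes of their rises are not bounds. From MEFs to grafts 10 of 32 rose and 3 fell (29.9% and 12% of all genes), led by the renal transporter gene Slc22a2 (8.47 ± 1.27), the potassium channel gene Kcnq1 (7.65 ± 0.57) and Rasgrf1 (6.79 ± 0.90). Slc22a2 was 9.44, 3.45, 10.69, 6.25 and 10.73 in the grafts, beside the kidney marker sums given for Gatm, and -0.36 ± 1.13 (SD, n = 6) in MEFs. Between prostate and grafts 8 of 31 were lower in prostate and 2 higher (23% and 10.3% of all genes), again led by Slc22a2 (-7.56 ± 1.29).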

How the data were processed

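RNA-seq of 6 MEF, 6 prostate and 7 renal graft samples was analysed. Per the labels and methods, the authors made libraries with a kit that does not mark strand, and the submitters' processing notes name bcl2fastq 1.8.4, TopHat, Cufflinks and DESeq and the build mm9. The deposited values are log2 expression values in 2 tables of 23284 genes, normalised separately by the authors, and high values (12 to 15) correspond to whole reads in all cases (within 0.1 reads), which gave the depths. Low values carry added scatter, so reads were not recovered, count tests were not used and the log2 values were tested as deposited. Reads on genes were 16767283 to 26152339 per library in the first table.

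Groups were compared with limma 3.58.1 (R 4.3.3, trend) over every gene whose linear mean reached 10 in the samples compared, with Benjamini-Hochberg adjusted p under 0.05 and an absolute log2 difference of at least 1, and by exact permutation (two-sided) of the samples for each member. Code was tested on simulated data. The second table was moved onto the first by the median difference of 10188 genes, each exceeding 5 in all samples. Sums of markers are log2 of summed linear values. MEF pairs were found from counting differences over 4014 genes: chi-square per degree of freedom was 3.5 to 26.7 within pairs and 122.2 to 158.3 otherwise, against 17.5 for the closest prostate libraries. The pairs differed by more than counting noise, which does not show that they are separate replicates, so the fits with 6 MEF samples may overstate n, and averaging each pair was an alternative. Positions are from GENCODE M1 on mm9 for 39 members, sequences from RefSeq on GRCm38.p6. Python 3.11.15, numpy 2.4.6, pandas 2.3.3 and matplotlib 3.10.9 were used.

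Members are given in full if called in a comparison with an absolute log2 difference of at least 2, or if a leading growth gene of their domain, and others by range. From each further list at most 3 called genes per comparison are named. Members and lists were chosen with earlier results of these data known, so they are not independent evidence. Alternatives changed the pseudocount (1), the filter (none, 50), scaling, samples in the fit, minimum difference, sample weights and MEF libraries, and left out each graft. Leaving out each MEF pair, and averaging the pairs in the exact tests, were added after seeing the data.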

Additional observations from a re-analysis of the deposited data

Results flagged for a closer look

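Over 120 sets of values (40 members in 3 groups), 8 held a highest or lowest library farther from the rest than Dixon's test allows, where about 6 are expected by chance. In the grafts these were Cdkn1c in FS007 (6.73, others 8.65 to 9.29), Ndn in FS008 (4.68, others 9.61 to 10.69) and Magel2 in FS008 (0.31, at its floor, others 6.16 to 7.82). In MEFs they were Kcnq1ot1 in FS019 (6.06, others 7.23 to 7.78) and Rtl1 in FS019 (2.56, others 3.71 to 4.37). In prostate they were Dlk1 in FS013 (3.54, others 2.23 to 2.50), Gnas in FS009 (14.61, others 13.94 to 14.14) and Slc38a4 in FS009 (2.85, others 4.99 to 5.87).

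In the second table, which entered no test, 11 values lay more than 1 on the log2 scale above every library of the first. In FS023 they were Meg3 (14.35, first table at most 12.70), Nnat (14.26, at most 11.92), Ndn (13.44, at most 10.83), Ppp1r9a (11.68, at most 9.88), Zdbf2 (11.56, at most 10.11), Usp29 (10.78, at most 6.95), Magel2 (9.51, at most 7.82), Mkrn3 (8.47, at most 7.24), Rtl1 (6.62, at most 4.37) and Snrpn (4.85, at most 2.86). In FS022 it was Mcts2 (9.11, at most 7.79). The neuron marker sum of FS023 was 16.28 and its part in these values was not tested.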

How the results depend on the processing

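Of 70 member differences called, 50 kept direction and call under every alternative run, 20 lost the call under at least 1, and 1 turned, Mkrn3 between grafts and MEFs (-0.72 under quantile normalization). The count of members called was 26 to 32 between prostate and MEFs, and leaving out each graft in turn gave 16 to 19 between grafts and MEFs and 17 to 25 between prostate and grafts. It fell to 13 between grafts and MEFs without FS015 to FS018 and to 13 with MEF pairs averaged, which leave fewer MEF samples. Of 42 tested member differences not called, 28 were called in the same direction under at least 1 alternative, some of them only where no minimum difference was set. Differences that were not called also turned sign, and those of Airn and Sfmbt2 given below then met the criteria for a call in the turned direction. For prostate minus MEF, quantile normalization gave Mkrn3 -0.16, Gnas 0.08 and Gatm -0.22, and without FS015 to FS018 Gatm was -0.71 and Mcts2 0.06. Mcts2 was 0.06 with array weights, 0.02 without FS015 and FS020 and 0.01 without FS017 and FS018, and Gatm was -0.64 without the latter. For grafts minus MEFs, quantile normalization gave Usp29 -0.57, Airn -1.79 (adjusted p = 0.0014) and Mcts2 -0.41. Array weights gave Cdkn1c 0.55, Peg10 0.54, Asb4 1.04 and Zdbf2 0.72. Leaving out each graft in turn gave Cdkn1c -0.47 to 0.17 (the latter without FS007), Kcnq1ot1 -0.37 to 0.06 (without FS002) and Asb4 -0.74 to 0.64 (positive without FS007 or FS008, 0.61). Cdkn1c was 0.81 without FS015 and FS020, Kcnq1ot1 0.45 without FS015 to FS018, and Asb4 0.20 without FS015 and FS020 and 0.29 without FS016 and FS019. For prostate minus grafts, quantile normalization gave Mkrn3 0.56, Mcts2 0.03 and Sfmbt2 1.34 (adjusted p = 0.00796), and array weights Dio3 -0.11 and Sgce -0.60. Leaving out each graft in turn gave Meg3 -1.50 to 0.24 (positive without FS003 or FS005), Dio3 -0.12 (without FS008) to 0.39, Sgce -0.06 to 0.81 (negative without FS007 or FS008) and Sfmbt2 -0.35 to 0.26 (positive without FS002, FS003 or FS005). The causes were not tested. No paired analysis was possible because the labels number no replicates, and the numbers used here follow library order and tie no samples together. Depth limits members near 3 reads (Snrpn, Rtl1, Magel2, Usp29 and Ascl2), and FS022 and FS023, with fewer reads, have higher floors.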
